A study of Mus musculus with 7 samples.

Results

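Recurrent mutations in human myelodysplastic syndrome and acute myeloid leukemia fall in a small number of genes. The mouse orthologs of 40 such driver genes were followed here through a bone marrow RNA-seq table of 28987 genes. The genes were chosen by name as orthologs of recurrently mutated drivers, and each of the 40 symbols matched 1 row of the table. RUNX1 itself, the engineered gene of the study, is not among them.

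The study profiled bone marrow cells of C57BL/6 mice in 7 RNA-seq libraries that form 6 groups. Hematopoietic stem and progenitor cells (HSC/P), selected on CD117 (Kit) and then sorted for the mutant clone, gave 3 libraries: 1 from HMGA2-OE mice and 2 replicates from RUNX1mut/HMGA2-OE mice. HMGA2-OE stands for overexpression of the chromatin protein HMGA2, and RUNX1mut for mutation of the transcription factor RUNX1. Sorted Ly6G+ cells, which are maturing and mature neutrophils, gave 1 library each: Control, HMGA2-OE, RUNX1mut, and the 2 alterations combined (RUNX1mut/HMGA2-OE). Every HSC/P library therefore carries HMGA2-OE, and no HSC/P library without it was analysed here. No source used here gives the promoter behind the overexpression, the RUNX1 allele or the animals' ages. Only RUNX1mut/HMGA2-OE HSC/P has replicates, so every p-value rests on the spread between those 2 libraries or on the residual of a model across single libraries.

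Driver genes of myeloid neoplasms act in a few shared processes. DNMT3A adds and TET2 oxidizes DNA methylation, and mutant IDH1 or IDH2 makes a metabolite that blocks TET2. The polycomb repressive complex PRC2 (EZH2 or EZH1 with EED and SUZ12) writes a repressive histone mark, ASXL and BCOR proteins act with other polycomb complexes, and cohesin (SMC1A, SMC3, RAD21, STAG2) holds DNA loops and sister chromatids. Other drivers splice RNA, carry cytokine and RAS signals, or modify histones at active genes. Stem and progenitor cells divide often, while Ly6G+ neutrophils have left the cell cycle and keep a small set of abundant transcripts.

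Values are TPM, a share of all transcripts corrected for transcript length, which allows genes to be compared within a library. The TPM of HSC/P libraries are given below in the order HMGA2-OE, RUNX1mut/HMGA2-OE replicate 1 and replicate 2, and those of Ly6G+ libraries in the order Control, RUNX1mut, HMGA2-OE and then both alterations. Read depth is not known from TPM. In bulk samples, fewer cells of a type and less RNA per cell cannot be told apart. Runx1, the target of the mutation, was at 18.9, 219 and 225 TPM in HSC/P and 3.85, 11.6, 3.36 and 21.2 TPM in Ly6G+ cells, so it was higher in each library labelled RUNX1mut than in its counterpart. Hmga2, the overexpressed gene, was at 146.5, 175.8 and 137.6 TPM in HSC/P and 1.45, 1.36, 3.72 and 12.1 TPM in Ly6G+ cells. Among HMGA2-OE libraries its level was thus far lower in Ly6G+ cells than in HSC/P. Neutrophil markers summed to between 308700 and 678300 TPM in Ly6G+ libraries, and stem and progenitor markers to between 219.4 and 787.2 TPM in HSC/P. The Ly6G+ RUNX1mut/HMGA2-OE library stood apart: S100a8, a major neutrophil protein, held 3.11% of its listed TPM, against 40.2% to 55.0% in the other Ly6G+ libraries. Other neutrophil markers did not fall with it: S100a9 held 14.4%, against 7.12% to 8.44% in the other Ly6G+ libraries. Ly6g was at 414.6, 340.8, 269.6 and 441.1 TPM and Ltf at 11740, 11370, 8426 and 18310 TPM. Its erythroid markers summed to 6944 TPM, against 126.7 to 540.2 TPM in the other Ly6G+ libraries. Ly6G+ values of single genes are also given from the pair of libraries without it. The difference in RUNX1 effect between the cell types cannot be fitted without it, and without it the RUNX1 term over both cell types rests on HSC/P alone.

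Of the 40 genes, 33 were at 1 TPM or more in every library. In HSC/P, 33 reached 10 TPM in all 3 libraries, and in Ly6G+ cells 13 reached it in all 4. The share of all genes at 10 TPM was not computed. Of all genes, 12012 to 12449 were at 1 TPM or more in an HSC/P library and 8559 to 10763 in a Ly6G+ library. Wt1, a zinc finger transcription factor, was at 0.251, 0.245 and 0.247 TPM in HSC/P and 0.0629, 0, 0.0626 and 0.0848 TPM in Ly6G+ cells. It was the one gene of the 40 that failed the level filter (2 or more libraries at 1 TPM) in every comparison.

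**Figure D1:**
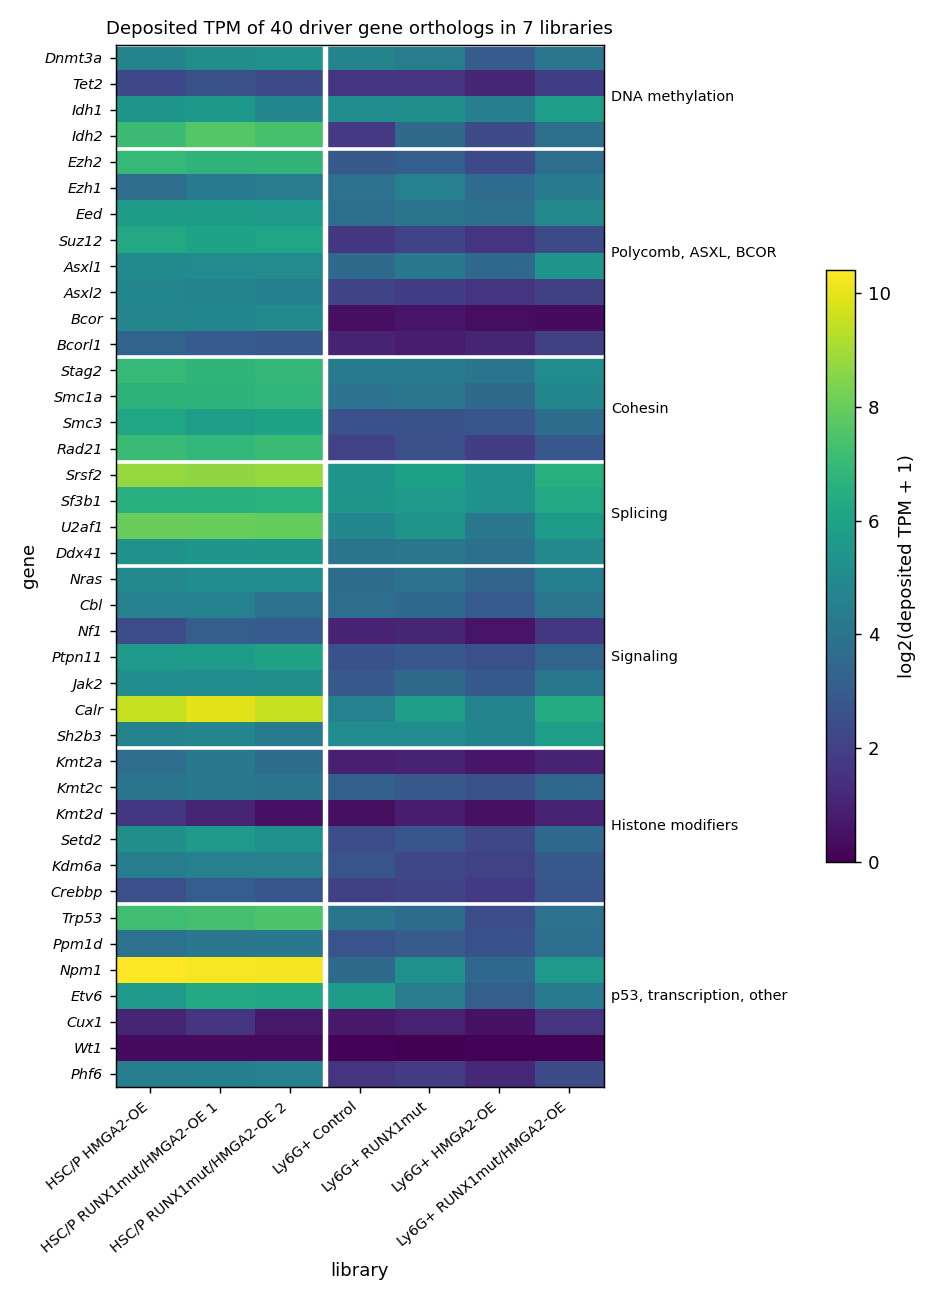
Heat map of log2(deposited TPM + 1) for the 40 driver gene orthologs (rows, grouped by role) in the 7 libraries (columns). Npm1 reaches 1364 TPM in HSC/P, and Wt1 lies under 1 TPM in every library.

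The promoters of PRC2 genes are shown because Ezh2 and Suz12 were higher in HSC/P relative to other genes, while Ezh1 and Eed of the same complex were lower. The stretches run from 250 bases before to 30 bases after the annotated start (RefSeq, GRCm38.p6). Capitals mark E2F words (TTGGCGC or TTCCCGC) and RUNX words (TGTGGT or TGCGGT), searched on both strands. Ezh2 lies at chr6:47595001-47595280 on the minus strand, Suz12 at chr11:79992856-79993135 on the plus strand, Ezh1 at chr11:101226434-101226713 on the minus strand and Eed at chr7:89980947-89981226 on the minus strand.
Ezh2: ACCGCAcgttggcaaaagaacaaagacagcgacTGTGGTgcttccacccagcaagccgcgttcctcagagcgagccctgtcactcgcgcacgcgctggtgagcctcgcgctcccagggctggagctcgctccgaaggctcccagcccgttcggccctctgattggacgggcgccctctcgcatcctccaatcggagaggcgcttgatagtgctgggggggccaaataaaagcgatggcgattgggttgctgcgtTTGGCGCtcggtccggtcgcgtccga
Suz12: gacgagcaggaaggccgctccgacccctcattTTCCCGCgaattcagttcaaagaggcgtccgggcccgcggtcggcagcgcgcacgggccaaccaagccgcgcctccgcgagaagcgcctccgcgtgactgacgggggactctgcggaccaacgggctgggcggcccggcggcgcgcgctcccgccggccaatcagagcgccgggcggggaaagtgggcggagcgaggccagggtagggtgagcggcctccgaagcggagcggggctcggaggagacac
Ezh1: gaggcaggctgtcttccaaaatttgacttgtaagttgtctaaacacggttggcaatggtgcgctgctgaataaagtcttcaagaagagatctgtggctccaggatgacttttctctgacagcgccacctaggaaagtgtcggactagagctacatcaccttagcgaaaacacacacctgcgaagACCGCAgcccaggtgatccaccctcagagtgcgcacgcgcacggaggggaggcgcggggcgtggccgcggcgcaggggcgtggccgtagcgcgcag
Eed: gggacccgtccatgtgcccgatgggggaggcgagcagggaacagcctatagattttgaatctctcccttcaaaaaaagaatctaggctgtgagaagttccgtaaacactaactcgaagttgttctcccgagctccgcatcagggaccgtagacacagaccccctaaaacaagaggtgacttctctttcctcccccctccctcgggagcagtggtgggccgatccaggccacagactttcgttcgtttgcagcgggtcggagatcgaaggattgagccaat

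Ezh2 had an E2F word 4 bases after its start and RUNX words 217 and 250 bases before it. Suz12 had an E2F word 218 bases before its start. Ezh1 had a RUNX word 66 bases before its start, and Eed had neither word in this window. Across the 300-base RefSeq windows, 17.5% of the 40 windows of 35 driver gene orthologs held an E2F word, against 6.81% of all 32851 promoters. A RUNX word was in 15% of these windows, against 22.4% of all promoters. The median window of the driver gene orthologs held 26 CpG dinucleotides and the median of all promoters held 7. A match is a description of letters and shows no binding.

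The first comparison asks how the driver gene orthologs differ between HSC/P and Ly6G+ cells when both carry HMGA2-OE, with the Hmga2 levels given above. In deposited TPM, 31 of 40 were higher in every HSC/P library than in every Ly6G+ library, and none was lower in all of them. Among 12881 genes at 1 TPM in 2 libraries, 66.5% were above all Ly6G+ libraries and 9.18% below, so the direction follows that of most genes. The genes that overlapped were Idh1, Ezh1, Asxl1, Cbl, Sh2b3, Kmt2d, Crebbp, Etv6 and Cux1. A model on the 5 HMGA2-OE libraries, with the RUNX1 mutation as a term and each library scaled so that the bulk of genes did not move, called 18 of 39 higher and 13 lower in HSC/P. Among all 12686 genes, 32.2% were called higher and 32.5% lower. All 18 genes called higher stayed called without scaling and with upper-quartile scaling, 2 alternatives to the trimmed mean of log ratios. Both alternatives move genes upward in HSC/P, with all-gene medians of 1.46 and 0.50 against 0.10. Higher calls are therefore likely to stay under them, and all 72 among 157 other genes of these pathways did. The share of higher calls that stayed over all genes was not computed. Of the 13 called lower, 0 stayed called under these scalings. Over all genes 1117 of 4127 lower calls stayed (27.1%), or 8.8% of the genes tested. A lower value below is therefore relative to the other genes of the same library. Without scaling 27 were called higher and 0 lower, and 87.9% of all calls were higher, against 49.7% with scaling. With upper-quartile scaling 21 were called higher and 7 lower, with 63.6% of all calls higher. The median log2 difference was 0.33 for these genes and 0.10 for all genes, and without scaling 1.95 and 1.46. In a fit of all libraries without the Ly6G+ RUNX1mut/HMGA2-OE one, 25 were called, and the calls of Stag2, Setd2, Tet2, Eed, Cbl and Kmt2c were lost. Leaving out replicate 1 or replicate 2 of RUNX1mut/HMGA2-OE HSC/P also gave 25, without Stag2, Smc1a, Setd2, Tet2, Eed and Kmt2c.

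**Figure D2:**
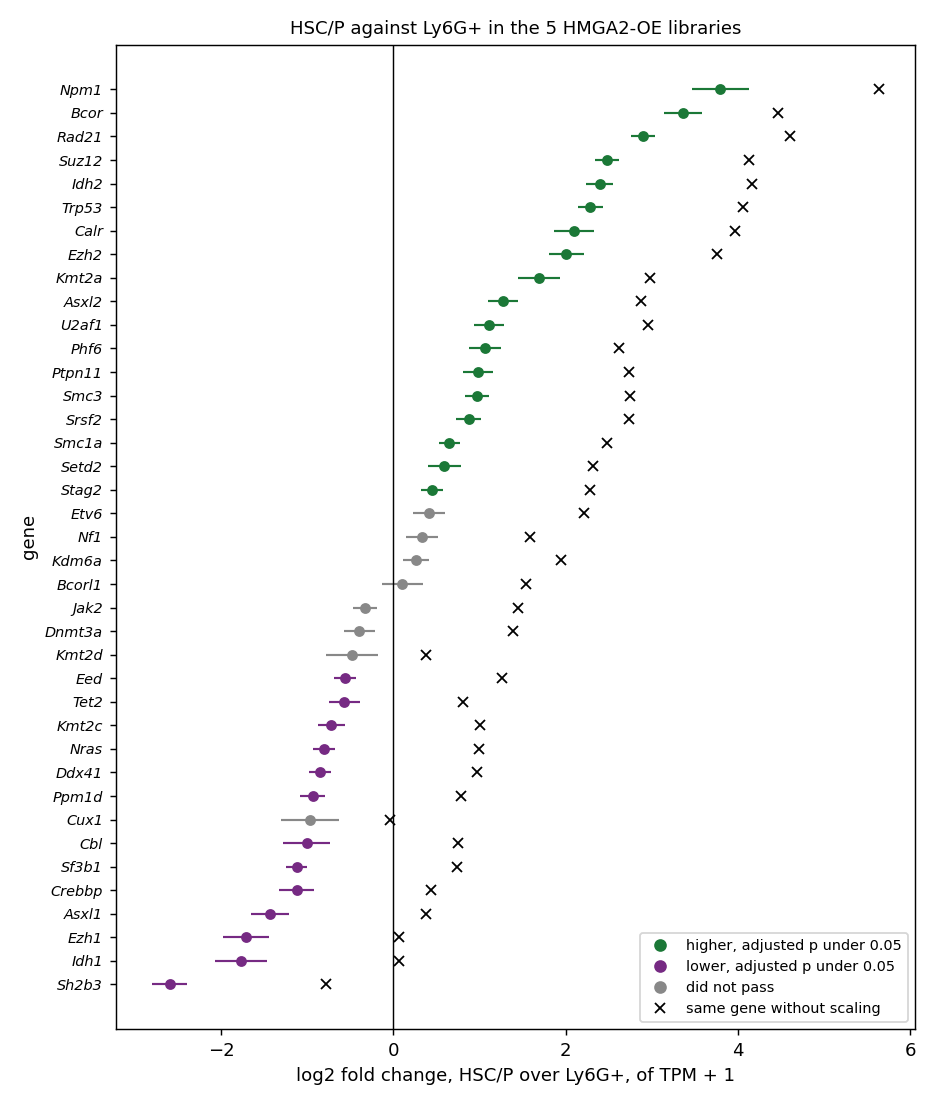
log2 difference of TPM + 1 between HSC/P and Ly6G+ cells in the 5 HMGA2-OE libraries, 1 row per tested gene; dots and bars are the scaled value and its SE, colored by call, and crosses the same gene without scaling. Npm1, Bcor and Rad21 are highest with scaling, and without it Sh2b3 and Cux1 alone lie below 0.

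Among DNA methylation genes, 1 of 4 was higher in HSC/P and 2 were lower relative to other genes. Idh2, the mitochondrial isocitrate dehydrogenase (GRCm38 chr7:80094846-80115392, minus strand, GENCODE M21), was at 139, 205 and 168 TPM in HSC/P and 2.27, 11.2, 4.19 and 13.2 TPM in Ly6G+ cells. Every HSC/P library exceeded every Ly6G+ library, and the log2 difference was 2.39 ± 0.16 (SE, adjusted p = 0.000915 with limma). Idh1, its cytosolic relative, was at 43.4, 45.8 and 26.5 TPM in HSC/P and 33.1, 35.3, 21.2 and 54.9 TPM in Ly6G+ cells, so the cell types overlapped. Idh1 was lower relative to other genes (-1.77 ± 0.30), and at 0.06 without scaling. The methyltransferase gene Dnmt3a was at 25.2, 35.3 and 39.5 TPM in HSC/P and 23.9, 19.8, 7.24 and 16.02 TPM in Ly6G+ cells and did not pass (-0.39 ± 0.18, adjusted p = 0.118). The dioxygenase gene Tet2 was at 3.78, 4.93 and 4.3 TPM in HSC/P and 2.01, 1.92, 1.17 and 2.82 TPM in Ly6G+ cells. Its call as lower sat at the threshold (adjusted p = 0.0498). Of 19 other DNA methylation genes in a list of partner genes, 10 were higher and 2 lower. They include the methyltransferases Dnmt3b (2.85 ± 0.24) and Dnmt1 (2.08 ± 0.20) and the Krebs cycle subunit Idh3a (2.39 ± 0.18).

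Within PRC2 the subunits did not move as a block. Ezh2, the catalytic subunit of dividing cells (chr6:47530139-47595341, minus strand), was at 123, 107 and 112 TPM in HSC/P and 6.54, 7.58, 3.87 and 12.1 TPM in Ly6G+ cells. Suz12, the scaffold subunit, was at 77.1, 65.2 and 68.5 TPM in HSC/P and 2.14, 3.39, 2.03 and 4.18 TPM in Ly6G+ cells. Both were far above the neutrophils in each HSC/P library, with log2 differences of 2.01 ± 0.20 and 2.48 ± 0.13 (limma adjusted p = 0.00205 and 0.00072). Eed, the subunit that reads the mark, was at 53.2, 49.5 and 49.05 TPM in HSC/P and 12.4, 15.1, 13.3 and 28.6 TPM in Ly6G+ cells. Ezh1, the alternative catalytic subunit, was at 12.3, 18.6 and 19.97 TPM in HSC/P and 13.9, 22.4, 11.3 and 18.9 TPM in Ly6G+ cells. Ezh1 thus overlapped between the cell types and was lower relative to other genes (-1.71 ± 0.26), as was Eed (-0.56 ± 0.12). Without scaling these values were 0.06 for Ezh1 and 1.26 for Eed.

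Of the ASXL and BCOR genes, Bcor had the second largest difference of the 39. Bcor, a subunit of a PRC1 complex, was at 25.6, 26.1 and 29.6 TPM in HSC/P and 0.3596, 0.515, 0.307 and 0.225 TPM in Ly6G+ cells, a log2 difference of 3.36 ± 0.22 (adjusted p = 0.000916). Its relative Bcorl1 was at 9.35, 7.03 and 6.15 TPM in HSC/P and 1.02, 0.738, 1.097 and 2.89 TPM in Ly6G+ cells and did not pass (0.10 ± 0.24). Asxl2 was at 26.8, 25.1 and 21.6 TPM in HSC/P and 3.37, 2.73, 1.98 and 2.98 TPM in Ly6G+ cells, and was higher by 1.27 ± 0.17. Asxl1, the family member most often mutated in patients, was at 30.3, 31.5 and 31.6 TPM in HSC/P and 11.3, 17.6, 10.8 and 41.6 TPM in Ly6G+ cells. The Ly6G+ RUNX1mut/HMGA2-OE library lay above all HSC/P libraries for Asxl1, and the relative log2 difference was -1.43 ± 0.22, or 0.38 without scaling. Of 28 other polycomb genes tested, 13 were higher and 6 lower, among them the PRC2 accessory gene Aebp2 (1.99 ± 0.14) and the PRC1 genes Kdm2b (2.20 ± 0.16), Ring1 (2.29 ± 0.21) and Pcgf6 (2.38 ± 0.23).

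All 4 cohesin genes were higher in HSC/P, by unequal amounts. Rad21, the ring-closing subunit (chr15:51962240-51991747, minus strand), was at 135, 119 and 136 TPM in HSC/P and 3.06, 4.86, 2.75 and 6.13 TPM in Ly6G+ cells. Its log2 difference was 2.90 ± 0.14 (adjusted p = 0.00063), the third largest of the 39. Smc3 was at 70.2, 56.5 and 63.1 TPM in HSC/P and 5.22, 4.98, 5.65 and 11.9 TPM in Ly6G+ cells (0.97 ± 0.14). Smc1a was at 105, 105 and 115 TPM in HSC/P and 14.5, 16.2, 11.1 and 27.1 TPM in Ly6G+ cells (0.65 ± 0.13). Stag2, the subunit most often mutated in myeloid neoplasms, was at 126, 111 and 122 TPM in HSC/P and 19.4, 19.4, 15.6 and 32.6 TPM in Ly6G+ cells (0.45 ± 0.13). The 4 genes sat close together in HSC/P, within 56.5 and 136 TPM, and spread from 2.75 to 32.6 TPM in Ly6G+ cells. Stag2 and Smc1a are among the calls that were lost when single libraries were left out. Of 15 other cohesin genes, 5 were higher and 4 lower, with the cohesin regulators Pds5a (1.18 ± 0.13) and Pds5b (1.17 ± 0.16) higher and the loader Mau2 lower (-1.61 ± 0.16, and 0.18 without scaling).

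Splicing genes divided evenly. Srsf2, which binds exonic enhancers, was at 433, 408 and 453 TPM in HSC/P and 43.5, 59.8, 37.9 and 93.7 TPM in Ly6G+ cells (0.87 ± 0.14). U2af1, which reads the 3' splice site, was at 259, 253 and 245 TPM in HSC/P and 28.02, 40.6, 17.04 and 50.2 TPM in Ly6G+ cells (1.11 ± 0.17). Both were higher in HSC/P. Sf3b1, the branch point factor, was at 94.8, 95.7 and 100.3 TPM in HSC/P and 44.4, 47.02, 38.4 and 77.8 TPM in Ly6G+ cells (-1.12 ± 0.12). The helicase gene Ddx41 was at 38.8, 43.3 and 44.3 TPM in HSC/P and 15.1, 16.4, 13.2 and 29.1 TPM in Ly6G+ cells (-0.85 ± 0.13). Sf3b1 and Ddx41 were lower relative to other genes, although each HSC/P library was above each Ly6G+ library in TPM. Of 25 other splicing genes, 14 were higher and 4 lower, led by U2af2, the partner of U2af1 (3.27 ± 0.13).

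In signaling, 2 of 7 genes were higher and 3 lower. Calr, an endoplasmic reticulum chaperone gene, was at 725, 998 and 714 TPM in HSC/P and 23.02, 54.2, 24.6 and 84.2 TPM in Ly6G+ cells (2.10 ± 0.23). The phosphatase gene Ptpn11 was at 47.2, 52.6 and 62.5 TPM in HSC/P and 5.199, 6.12, 4.79 and 9.35 TPM in Ly6G+ cells (0.98 ± 0.17). Calr and Ptpn11 passed under every scaling. Sh2b3, an adaptor that restrains cytokine signaling, was at 23.96, 26.2 and 18.3 TPM in HSC/P and 32.7, 32.1, 25.1 and 55.98 TPM in Ly6G+ cells. It was the most negative of the 39 (-2.60 ± 0.20, adjusted p = 0.00125) and stayed below 0 without scaling, at -0.78, where it did not pass (adjusted p = 0.141). Nras, the RAS GTPase gene, was at 29.3, 33.1 and 33.9 TPM in HSC/P and 11.8, 14.2, 9.602 and 21.8 TPM in Ly6G+ cells (-0.81 ± 0.13). The ubiquitin ligase gene Cbl was at 22.98, 22.98 and 13.8 TPM in HSC/P and 12.2, 10.9, 7.23 and 15.8 TPM in Ly6G+ cells (-1.01 ± 0.27). Nras and Cbl were lower relative to other genes, and without scaling their values were 0.99 and 0.75. Jak2, the cytokine receptor kinase, was at 33.01, 32.2 and 35.3 TPM in HSC/P and 6.59, 11.1, 6.75 and 17.2 TPM in Ly6G+ cells and did not pass (-0.33 ± 0.14). Nf1, a RAS inhibitor, was at 4.46, 8.02 and 7.15 TPM in HSC/P and 1.02, 1.15, 0.511 and 2.26 TPM in Ly6G+ cells and did not pass (0.33 ± 0.18). Of 26 other signaling genes, 10 were higher and 10 lower. The phosphatase gene Ptpn6 (-4.01 ± 0.24) and the kinase gene Jak1 (-2.50 ± 0.15) were lower, with values of -2.14 and -0.64 without scaling.

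Among histone modifier genes, the methyltransferase genes Kmt2a and Setd2 were higher and Kmt2c and the acetyltransferase gene Crebbp lower relative to other genes. Kmt2a was at 12.1, 17.5 and 11.9 TPM in HSC/P and 0.909, 0.986, 0.538 and 1.08 TPM in Ly6G+ cells (1.69 ± 0.24). Setd2 was at 34.98, 47.5 and 36.1 TPM in HSC/P and 4.44, 5.68, 3.62 and 10.8 TPM in Ly6G+ cells (0.59 ± 0.19), and its call sat at the threshold (adjusted p = 0.0497). Calls of both Setd2 and Kmt2c were lost when single libraries were left out. Kmt2c was at 15.6, 17.7 and 15.6 TPM in HSC/P and 8.37, 6.504, 4.94 and 10.3 TPM in Ly6G+ cells (-0.72 ± 0.16). Crebbp was at 4.81, 7.57 and 5.88 TPM in HSC/P and 2.88, 3.44, 2.46 and 5.71 TPM in Ly6G+ cells (-1.12 ± 0.20). Kmt2d was low, at 2.22, 1.08 and 0.429 TPM in HSC/P and 0.293, 0.752, 0.394 and 1.03 TPM in Ly6G+ cells, and the demethylase gene Kdm6a was at 20.3, 22.3 and 22.5 TPM in HSC/P and 5.45, 3.82, 3.15 and 6.51 TPM in Ly6G+ cells. Neither passed (-0.48 ± 0.30 for Kmt2d and 0.26 ± 0.15 for Kdm6a). Of 23 other histone modifier genes, 10 were higher and 4 lower, including Dot1l (1.89 ± 0.18), Ash2l (1.46 ± 0.14) and Nsd2 (1.75 ± 0.18) among the higher.

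Npm1, a nucleolar chaperone gene (chr11:33152287-33163206, minus strand), had the largest difference. It was at 1364, 1285 and 1246 TPM in HSC/P and 10.98, 36.5, 10.2 and 49.1 TPM in Ly6G+ cells, and the log2 difference was 3.80 ± 0.33 (adjusted p = 0.00151). Npm1 has processed pseudogenes in the genome, and no source used here says how shared reads were divided. Trp53, the gene for p53, was at 149.7, 159.7 and 182 TPM in HSC/P and 15.5, 11.7, 4.55 and 13.9 TPM in Ly6G+ cells (2.29 ± 0.15). Phf6 was at 20.9, 21.7 and 22.8 TPM in HSC/P and 2.06, 2.5, 1.28 and 4.28 TPM in Ly6G+ cells (1.07 ± 0.18), so Npm1, Trp53 and Phf6 were all higher in HSC/P. Ppm1d, the p53 phosphatase gene, was at 14.4, 16.4 and 16.97 TPM in HSC/P and 5.44, 6.98, 5.19 and 12.4 TPM in Ly6G+ cells and was lower relative to other genes (-0.94 ± 0.14). Etv6 was at 48.6, 81.1 and 72.2 TPM in HSC/P and 51.02, 20.3, 7.79 and 18.4 TPM in Ly6G+ cells and did not pass (0.41 ± 0.18). Cux1 was at 1.098, 1.997 and 0.573 TPM in HSC/P and 0.643, 0.932, 0.421 and 2.04 TPM in Ly6G+ cells and did not pass (-0.97 ± 0.33, adjusted p = 0.0604). Partner genes here include Gata2 (3.48 ± 0.21), Cebpa (2.93 ± 0.22) and the nucleolin gene Ncl (2.95 ± 0.24), all higher in HSC/P.

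Ratios between related genes within a library do not depend on scaling. For 5 of the 6 pairs of related genes compared, the HSC/P ratios lay above all Ly6G+ ratios. In 4 of these, the exact two-sided permutation p was 0.0286 over 3 and 4 libraries (adjusted over 6 pairs 0.0429). A p of 0.0286 is the smallest value that the design allows. How often other pairs of genes separate in this way was not computed. Among all genes, 32.2% were called higher and 32.5% lower in HSC/P. The genes were chosen with earlier results of these data known, so these p-values describe the pairs and are not independent evidence. The Ezh2 to Ezh1 ratio was 9.99, 5.78 and 5.63 in HSC/P and 0.471, 0.339, 0.341 and 0.644 in Ly6G+ cells and the fold between the geometric means was 15.9. The Idh2 to Idh1 ratio was 3.19, 4.49 and 6.33 in HSC/P and 0.0688, 0.317, 0.198 and 0.241 in Ly6G+ cells, a 25.0-fold difference. The Bcor to Bcorl1 ratio was 2.74, 3.71 and 4.81 in HSC/P and 0.353, 0.697, 0.2797 and 0.0778 in Ly6G+ cells, a 13.5-fold difference. The Asxl2 to Asxl1 ratio was 0.884, 0.799 and 0.684 in HSC/P and 0.298, 0.155, 0.182 and 0.0717 in Ly6G+ cells, a 5.005-fold difference. Smc3 to Smc1a ratios differed by 1.47-fold, with an exact permutation p of 0.0571 (adjusted 0.0686), and Kmt2d to Kmt2c ratios overlapped (p = 0.686). All HSC/P libraries carry HMGA2-OE and 2 of the Ly6G+ libraries do not. The 2 Ly6G+ libraries that do carry it also lay below all HSC/P libraries in these 5 pairs. Without the Ly6G+ RUNX1mut/HMGA2-OE library, the log2 difference was 3.16 instead of 3.76 for Bcor to Bcorl1 and 1.95 instead of 2.32 for Asxl2 to Asxl1. Ratios chosen after values were seen, with no test, gave Suz12 over Eed as 1.45, 1.32 and 1.397 in HSC/P and 0.172, 0.225, 0.153 and 0.146 in Ly6G+ cells, an 8.09-fold difference, and Rad21 over Stag2 as 1.07, 1.08 and 1.11 in HSC/P and 0.158, 0.251, 0.176 and 0.188 in Ly6G+ cells, a 5.72-fold difference.

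**Figure D3:**
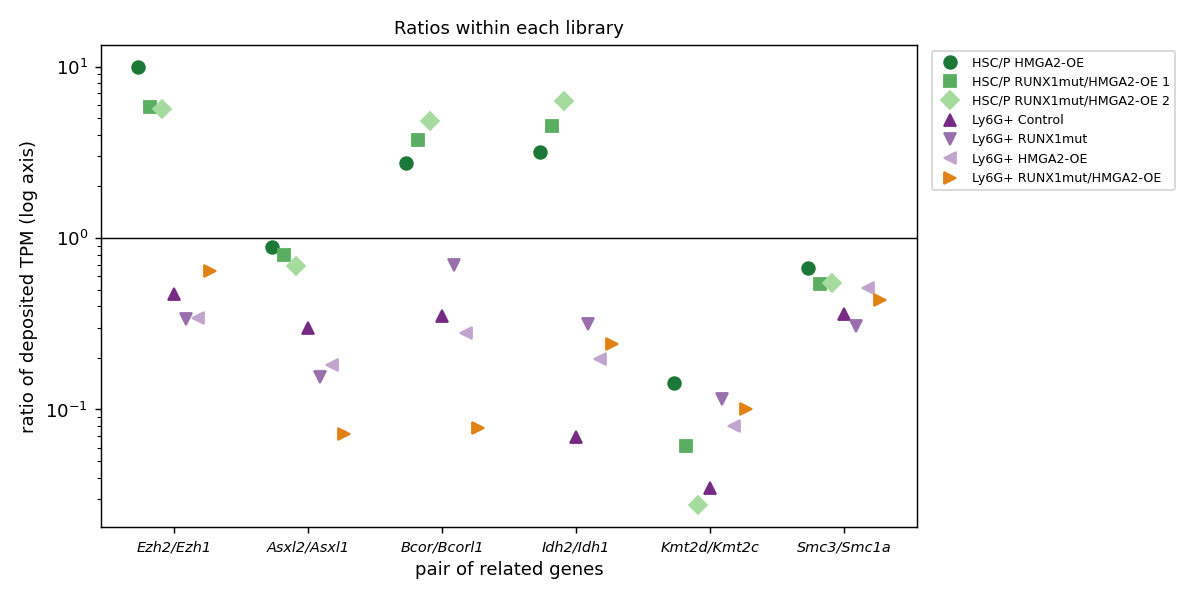
Ratio of deposited TPM within each library for 6 pairs of related genes, on a log axis, with the line at equal levels. The 3 HSC/P points lie above all 4 Ly6G+ points for Ezh2/Ezh1, Asxl2/Asxl1, Bcor/Bcorl1, Idh2/Idh1 and Smc3/Smc1a, and overlap for Kmt2d/Kmt2c.

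The second comparison asks what the RUNX1 mutation adds to HMGA2-OE in HSC/P, from 3 libraries. Of 39 driver gene orthologs tested, 0 passed the adjusted threshold, as did 0% of all 12226 genes. At an unadjusted p under 0.05, 1 (Etv6) was below it, against 15.5% of all genes. The median log2 difference was -0.05, and -0.0012 for all genes. Of the 39, 17 stayed within 0.3 of the HMGA2-OE library on the log2 scale in both replicates. The share of all genes in this range was not computed, so the 17 cannot be judged against it. Kmt2d alone was at least 2-fold from the HMGA2-OE library in either replicate, against 14.6% of all genes, at log2 ratios of -0.71 and -1.26. Its levels of 2.22, 1.08 and 0.429 TPM lie near the 1 TPM filter, and read depth is unknown. The summed neutrophil markers were 66990, 22930 and 21670 TPM and the stem and progenitor markers 219.4, 762.1 and 787.2 TPM in the HSC/P libraries, and their part in these values was not tested.

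Both replicates were below the HMGA2-OE library for 19 of the 39, against 39% of all genes, with 4 of 4 cohesin genes and 6 of 8 polycomb genes among them. Without scaling, Smc1a and Asxl1 lay above 0, at 0.06 each, as did Sf3b1 (0.05), Jak2 (0.03) and Phf6 (0.09). In deposited TPM, Smc1a was at 105.1, 105.2 and 114.9 and Rad21 at 135, 119.1 and 135.8, so neither was below in both replicates. Among values below 0, those with the smallest p were Suz12 (-0.35 ± 0.13), Smc3 (-0.38 ± 0.14), Ezh2 (-0.31 ± 0.12) and Bcorl1 (-0.58 ± 0.24), with limma adjusted p of 0.335, 0.340, 0.345 and 0.368. Npm1 was at -0.26 ± 0.11 (adjusted p = 0.378). None of these values passed. Of the 39 fitted values, 15 were above 0. Those with the smallest p were Etv6 (0.50 ± 0.16), Nf1 (0.53 ± 0.24), Ezh1 (0.46 ± 0.18), Dnmt3a (0.41 ± 0.16) and Idh2 (0.27 ± 0.19). Their limma adjusted p ran from 0.305 to 0.539. The Ezh1 and Ezh2 values had opposite signs, and neither passed. The replicates differed most for Idh1 (log2 of -0.05 and -0.86), Cbl (-0.12 and -0.86) and Cux1 (0.44 and -0.49), of which Cux1 alone had replicates on different sides of 0. Of 157 partner genes tested, 0 passed and 18 had an unadjusted p under 0.05, Runx1 among them at 3.34 ± 0.12.

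**Figure D4:**
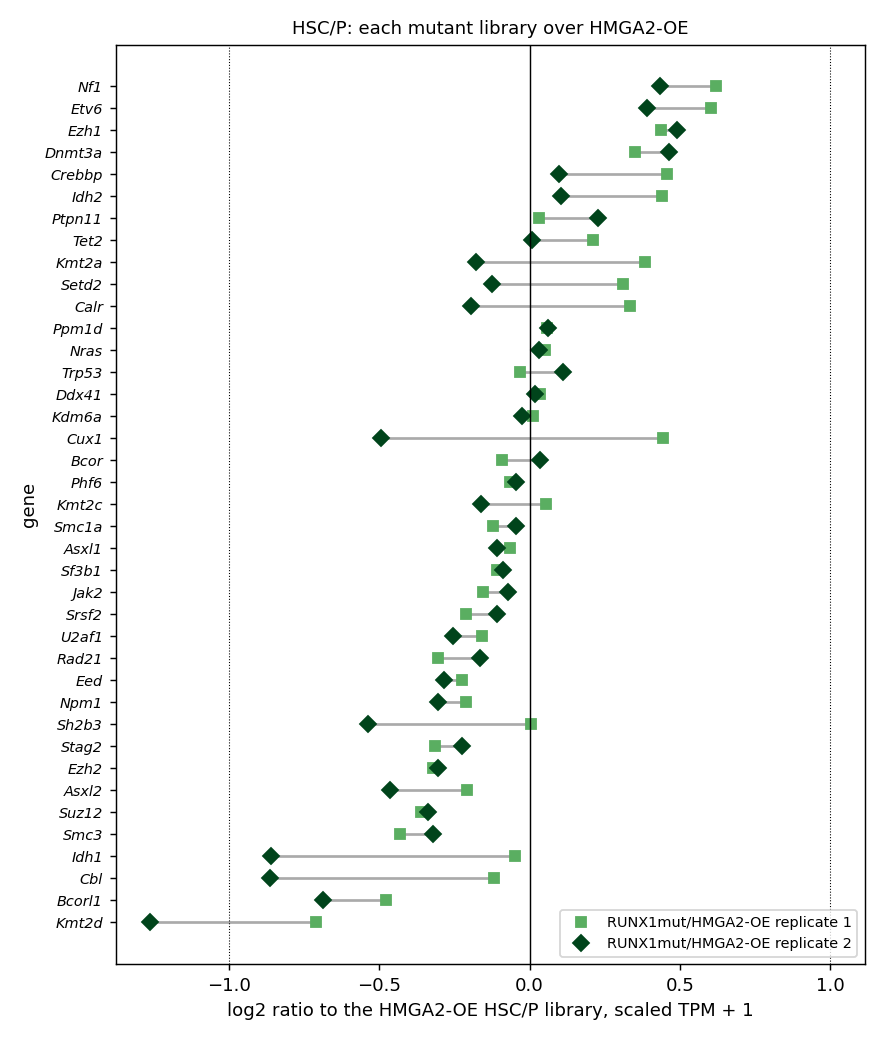
log2 ratio (scaled TPM + 1, x axis) of each RUNX1mut/HMGA2-OE HSC/P replicate to the HMGA2-OE HSC/P library for the driver gene orthologs. Lines join the 2 replicates of a gene and dotted lines mark 2-fold. With this scaling, cohesin genes lie below 0 in both replicates, and Kmt2d, with levels near 1 TPM, reaches -1.26 in replicate 2.

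The third comparison asks how the RUNX1 mutation and HMGA2-OE relate to the driver gene orthologs in Ly6G+ cells, from 4 libraries and a model with both terms. Of 35 tested, 0 passed for the RUNX1 term and 0 for the HMGA2-OE term, as did 0% of 9820 genes. At an unadjusted p under 0.05, 3 were below it for RUNX1 (14.3% of all genes) and 2 for HMGA2-OE (6.51%). The values below are therefore descriptions of single libraries. They are given as TPM scaled within the 4 Ly6G+ libraries.

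Npm1 was at 12.2, 35.8, 14.8 and 31.1 in the order given above, so both mutant libraries were above both others. The log2 difference was 1.25 ± 0.18 (unadjusted p = 0.00811, adjusted p = 0.331), and Npm1 was the one gene of the 35 at least 2-fold up in both pairs (log2 of 1.48 and 1.03), against 1.49% of all genes. Calr was at 25.6, 53.2, 35.6 and 53.4 and Asxl1 at 12.5, 17.3, 15.7 and 26.4, with log2 differences of 0.80 ± 0.17 and 0.57 ± 0.14. Idh2 was at 2.52, 10.96, 6.07 and 8.37 (1.08 ± 0.43). In all 4 genes the RUNX1mut library exceeded Control and the RUNX1mut/HMGA2-OE library exceeded HMGA2-OE. The same held for U2af1 (0.35 ± 0.10), Ezh2, Srsf2, Jak2, Setd2, Crebbp, Ppm1d and Phf6. The share of all genes with this pattern in scaled values was not computed. The most negative RUNX1 values were those of Etv6 (-0.71 ± 0.47), Asxl2 (-0.39 ± 0.14), Kdm6a (-0.34 ± 0.19) and Kmt2c (-0.30 ± 0.16). Without scaling, the last 3 lay above 0 (0.10, 0.22 and 0.30), where the median of all genes was 0.58. The log2 ratios of RUNX1mut over Control were -1.46 for Etv6, -0.36 for Asxl2, -0.57 for Kdm6a and -0.48 for Kmt2c. In the other pair they were 0.04, -0.42, -0.12 and -0.12, so the Etv6 value rests on 1 pair. Marker sums in deposited TPM, without scaling, differed along the same contrast: stem and progenitor markers summed to 12.6, 22.8, 8.17 and 33.7 TPM. In the same order, mast cell, basophil and eosinophil markers summed to 15.7, 163.6, 27.5 and 94.3 TPM. Of the 8 stem and progenitor markers, 5 were higher with the mutation in both pairs, as were 7 of 7 mast cell, basophil and eosinophil markers, 7 of 7 B lymphoid markers, 8 of 9 erythroid markers and 7 of 8 monocyte and macrophage markers. These counts also use deposited TPM, where the median log2 RUNX1 value of all genes was 0.58. The share of all genes higher in both pairs was not computed, so the counts cannot be judged against it. B lymphoid markers summed to 20.6, 69.97, 14.2 and 58.95 TPM and erythroid markers to 156.2, 540.2, 126.7 and 6944 TPM. Monocyte and macrophage markers summed to 1471, 918.5, 1087 and 852.1 TPM, lower with the mutation although 7 of the 8 were higher. Of the 13 neutrophil markers, 6 were higher with the mutation in both pairs, and the 13 summed to 605400, 566200, 678300 and 308700 TPM. The low last sum follows S100a8, which alone was at 439300, 398600, 546300 and 30620 TPM. S100a9 was at 83600, 82050, 70750 and 141900 TPM, highest in that last library. The primary granule genes Elane and Mpo are among the 6. Elane was at 16.6, 153.3, 26.7 and 101 TPM and Mpo at 28.4, 235.1, 53.2 and 228.4 TPM. Of 7 T and NK cell markers, 5 were higher in both pairs, and the 7 summed to 13.7, 24.3, 21.95 and 31.7 TPM. Megakaryocyte and platelet markers summed to 17.2, 50.5, 10.4 and 67.5 TPM, with Ppbp and Treml1 at 0 in a library. Their part in the Npm1, Calr, Asxl1 and Idh2 values was not tested. In the pair without the Ly6G+ RUNX1mut/HMGA2-OE library, RUNX1mut over Control, the log2 ratio was 1.48 for Npm1, 1.03 for Calr, 0.43 for Asxl1 and 1.76 for Idh2. In the pair with it, RUNX1mut/HMGA2-OE over HMGA2-OE, it was 1.03, 0.57, 0.71 and 0.41.

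For HMGA2-OE, Dnmt3a was at 26.6, 19.4, 10.5 and 10.2 in the same order, lower in each HMGA2-OE library than in its pair (-1.07 ± 0.16, unadjusted p = 0.00999, adjusted p = 0.589). Trp53 was at 17.2, 11.5, 6.59 and 8.79 and Etv6 at 56.6, 19.9, 11.3 and 11.6, with log2 differences of -0.81 ± 0.30 and -1.48 ± 0.47. Etv6 was also low with the RUNX1 mutation alone, so Control stood above the other libraries. Dnmt3a, Trp53 and Etv6 were the genes of the 35 at least 2-fold lower in either HMGA2-OE pair, against 6.23% of all genes. Each of these genes has an annotated transcript of 350 to 420 nt, as do 10 of the 40 and 23.6% of 12881 genes. The 10 also include Idh1, Idh2, Ezh1, Asxl1, Sh2b3, Crebbp and Phf6. The part of short transcripts was not tested, here or in the other comparisons and ratios that use these genes. In the pair without the Ly6G+ RUNX1mut/HMGA2-OE library, HMGA2-OE over Control, the log2 ratio was -1.26 for Dnmt3a, -1.26 for Trp53 and -2.23 for Etv6. In the pair with it they were -0.87, -0.35 and -0.73. Smc3 was at 5.79, 4.89, 8.18 and 7.52 (0.48 ± 0.12), higher in each HMGA2-OE library than in its pair. Of the 35 fitted values, 19 were above 0. Those with the smallest p also include Bcorl1 (0.50 ± 0.20), Asxl1 (0.44 ± 0.14) and Eed (0.36 ± 0.12). HMGA2-OE over Control gave 0.43 for Smc3, 0.28 for Bcorl1, 0.31 for Asxl1 and 0.45 for Eed. The pair with the RUNX1mut/HMGA2-OE library gave 0.53, 0.72, 0.58 and 0.27.

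**Figure D5:**
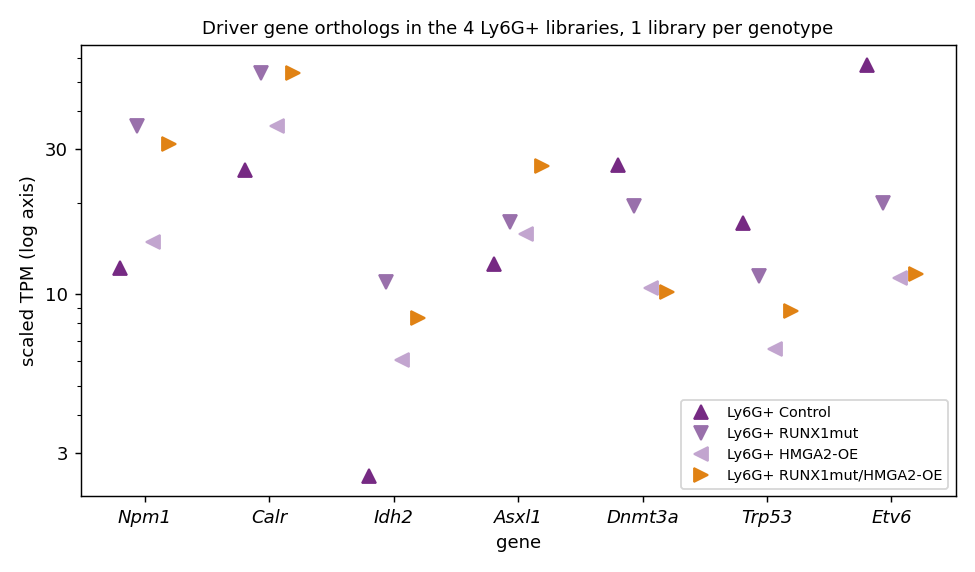
Scaled TPM (log axis) of 7 driver gene orthologs in the 4 Ly6G+ libraries, 1 point per library. Npm1 lies at 35.8 and 31.1 in the mutant libraries against 12.2 and 14.8, and Etv6 at 56.6 in Control against 11.3 to 19.9.

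The last comparison sets the RUNX1 effect in HSC/P beside that in Ly6G+ cells, within the HMGA2-OE libraries. As one term over both cell types, 0 of 39 passed (0% of 12686 genes), and 1 was below an unadjusted p of 0.05 (Nf1, 0.54 ± 0.18), against 7.8%. The difference in effect between cell types passed for 0 of 39 and for 0% of all genes. On simulated data this fit recovered 0 of 150 planted changes even at 16-fold, so 0 passing cannot decide whether the effects differ. At an unadjusted p under 0.05, 4 were below it, against 18.1%. These were Npm1 (-1.25 ± 0.18), Ezh1 (0.95 ± 0.20), Asxl1 (-0.76 ± 0.18) and Ezh2 (-0.68 ± 0.18), where a value above 0 marks a higher log2 change with the mutation in HSC/P than in Ly6G+ cells. Without scaling the Ezh1 value was -0.08. The Npm1 value was below 0 in HSC/P and above 0 in Ly6G+ cells, with an adjusted p of 0.165 for the difference. A value that did not pass in this fit of 5 libraries does not show that the effects are alike.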

How the data were processed

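RNA was sequenced from 3 HSC/P and 4 Ly6G+ bone marrow libraries of individual mice. The deposited table holds 28987 Ensembl genes in TPM, made by the authors with bcl2fastq, CASAVA 1.8 and kallisto on mm10, per the submitters' processing notes. Neither the kallisto version nor its index is given in the sources used here. Columns sum to between 896820 and 993009 TPM, so read depth is unknown and gives no counting interval. Symbols came from GENCODE M21 (27475 of 28987 matched).

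Genes were kept where 2 or more of the fitted libraries reached 1 TPM. Scaling used log ratios averaged without weights after trimming (0.3 of ratios and 0.05 of mean levels) and tested as log2(scaled TPM + 1) with limma 3.58.1 in R 4.3.3 with a variance trend, two-sided. Fold changes on this scale understate the change of low genes. P-values were adjusted by Benjamini-Hochberg over all genes of a fit, with a threshold of 0.05. The tests were checked on simulated data, where the interaction fit recovered none of the planted changes. Changes were planted only in genes whose mean on the log2 scale was above that of 10 TPM. Of the 40 driver gene orthologs, 13 reached 10 TPM in every Ly6G+ library, so the shares recovered may not hold for lower ones. The fits within a cell type recovered 0% to 3.33% of 2-fold changes. At 4-fold, 62% were recovered for RUNX1 in HSC/P, 18% for RUNX1 in Ly6G+ cells and 1.33% for HMGA2-OE. At 16-fold the shares were 98.7%, 52.7% and 82.7%. A value that did not pass therefore does not show the absence of a change. False calls were 0% to 9.05% of calls over the fits, and 6.37% in the cell type fit. The 0% belongs to the interaction fit, which made no calls on simulated data. The simulation changed few genes and held no shift between libraries. In the data the cell type fit called 8212 of 12686 genes, so the 6.37% does not describe those calls. Each gene is given with its TPM. Fitted values are given for those that passed, or for up to 5 of those with the smallest p in a direction. They are also given for up to 4 genes from each list of partner genes. The RUNX1 difference in HSC/P used 3 libraries, the Ly6G+ terms 4, and the cell type and interaction terms the 5 HMGA2-OE libraries. Alternatives were pseudocounts of 0.1 and 5, no filter, a 5 TPM filter, no scaling, upper-quartile scaling, no variance trend, single libraries left out and all libraries in 1 fit. The genes and lists were chosen with earlier results of these data known.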

Additional observations from a re-analysis of the deposited data

How the results depend on the processing

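No paired analysis was possible because the groups share fewer than 2 replicate numbers: all but RUNX1mut/HMGA2-OE HSC/P have 1 library, and no label ties libraries to the same mouse. The number of driver gene orthologs called between the cell types was 31 and ranged from 25 to 32 over the alternatives; 0 passed in every other comparison under the alternatives run. Depth is unknown, so no limit from counting can be given, and 1 library per Ly6G+ genotype limits precision. Without scaling, the medians were 0.064 (RUNX1 in HSC/P), 0.63 (RUNX1 in Ly6G+), 0.16 (HMGA2-OE), 1.95 (cell type), 0.52 (RUNX1 over both cell types) and -1.05 (interaction). Without scaling, signs reversed in the cell type comparison for Tet2 (0.81), Idh1 (0.0642), Ezh1 (0.0644), Eed (1.26), Asxl1 (0.38), Sf3b1 (0.74), Ddx41 (0.97), Nras (0.99), Cbl (0.75), Kmt2c (1), Crebbp (0.43) and Ppm1d (0.79). The same holds for the RUNX1 term in Ly6G+ cells of Asxl2 (0.10), Kmt2c (0.30), Kdm6a (0.22) and Dnmt3a (0.39). It holds for the RUNX1 term over both cell types of Asxl2 (0.0701), Smc3 (0.28), Suz12 (0.22), Stag2 (0.37) and Eed (0.39), and for the interaction of Ezh1 (-0.083), Dnmt3a (-0.50), Etv6 (-0.50) and Ptpn11 (-0.56). The cell type median was 0.43 with a pseudocount of 0.1, 0.20 with 5, 0.56 with no filter, 0.39 with a 5 TPM filter and 0.73 with upper-quartile scaling. Leaving out a RUNX1mut/HMGA2-OE HSC/P replicate gave cell type medians of 0.27 to 0.36 and interaction medians of -0.182 to -0.092. In 1 fit of all libraries, which also pools the RUNX1 term over HSC/P and Ly6G+ cells and was chosen after seeing the data where it leaves one out, the cell type median was 0.50 without the Ly6G+ RUNX1mut/HMGA2-OE library and 0.38 without the HMGA2-OE HSC/P library. The RUNX1 median in Ly6G+ cells was -0.0627 in that fit and -0.053 without the Ly6G+ RUNX1mut/HMGA2-OE library, where U2af1 was at -0.0328. In the fit of all libraries, RUNX1 values reversed for Etv6 (-0.31), Dnmt3a (-0.0627), Npm1 (0.59) and Trp53 (-0.11). The RUNX1 median over both cell types was 0.0364 with upper-quartile scaling, the HMGA2-OE median 0.0816 with a 5 TPM filter, and the interaction median -0.10 with a pseudocount of 5. The log2 difference of the Kmt2d to Kmt2c ratio was -0.27 without replicate 1 of RUNX1mut/HMGA2-OE HSC/P and 0.31 without replicate 2, against -0.28. Apart from scaling, which changes signs by its own construction, the cause was not tested.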
